A study of Mus musculus with 4 samples.

Results

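The genes of oxidative phosphorylation were followed across 3 stages of mouse gastrulation and across the cell types of each stage, the mitochondrially encoded genes beside the nuclear ones. The members are all rows of the count tables whose names begin with mt-Nd, mt-Co, mt-Cytb, mt-Atp, Nduf, Uqcr or Atp5, or with Cox and a digit from 4 to 8, leaving out names that hold -ps. This gave 98 members of 19616 gene names, of which 13 are mitochondrial and 85 nuclear. The name rule uses no measured value. It takes in 36 nuclear genes of complex I, 8 of complex III, 16 of complex IV and 15 of complex V, and with them 7 assembly factors of complex I (*Ndufaf1* to *Ndufaf7*) and 3 associated factors that are not subunits (*Atp5s*, *Atp5sl* and *Cox7a2l*). It leaves out complex II, which is wholly nuclear and was described as a separate list. *Cox7b2* had no row in the table of the earliest library, and *Cox6a2*, *Cox8b* and *Cox8c* had no row in any of the 3.

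The study traced the descendants of *T*-expressing primitive streak cells. Its embryos carried TnEGP-CreERT2/+ and R26Rtdtomato/R26Rtdtomato, and all received tamoxifen by gavage (0.08 mg/bw), so no untreated or Cre-free group is among them. MS-LS embryos (mid to late streak) were collected at E6+21h after tamoxifen at E6+5h, OB-EB embryos (no bud to early bud) at E7+3h after tamoxifen at E6+21h, and EHF embryos (early head fold) at E7+14h after tamoxifen at E7+7h. The Cre is made from the *T* locus, which acts in the streak and its early descendants, whereas the libraries hold whole dissociated embryos with their extra-embryonic tissues. Embryos of a stage were pooled into 1 library and cells were not assigned to embryos, so each stage is 1 sample without a replicate. Stage, library, pool of embryos and time after tamoxifen cannot be told apart.

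Oxidative phosphorylation passes electrons from NADH and succinate along the respiratory chain of the inner mitochondrial membrane, and the proton gradient that complexes I, III and IV build drives ATP synthase (complex V). Each of these 4 complexes is assembled from subunits of both genomes. The mitochondrial genome is transcribed from both strands as long polycistronic RNAs, which are cut at the tRNAs between genes, and its protein-coding genes make hydrophobic core subunits. Nuclear members are transcribed gene by gene, and some of them have a tissue isoform. In gastrulating embryos, the visceral endoderm is an absorptive epithelium around the embryo, and the first erythroid cells form in the yolk sac.

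Each library was read with the Chromium 3′ assay, in which a unique molecular identifier (UMI) lets copies of 1 captured molecule be counted once. In order of stage, the 3 libraries held 3635, 3994 and 3494 cells with 17966956, 12181436 and 20376539 UMIs in all, and a median of 4251, 2620.5 and 5584 UMIs per cell. Barcodes were nearly all particular to a library, as 29, 31 and 25 of them also occurred in another. Cytosolic ribosomal protein genes took 27.4%, 27.6% and 27.4% of UMIs. Shares carry exact binomial (Clopper-Pearson) intervals, levels carry exact Poisson intervals and ratios carry conditional binomial intervals, all at 95%. They cover counting error only. A level is given in counts per 1000000 UMIs of its group (CPM), without scaling to transcript length. Levels are mainly compared between groups for the same gene. Where different genes are set side by side, as in isoform shares, the comparison is of counted UMIs only. A gene is counted as higher or lower when its CPM ratio was at least 1.5 in that direction and both groups together held at least 100 UMIs. With 1 library per stage no test was possible, and these counts are descriptions of libraries, read beside the same count over all genes.

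The 13 mitochondrial members held fewer of the counted UMIs of each library than the nuclear members did. Of the 13, 6 have a near-identical nuclear copy of the end where this assay reads. Whether their UMIs are complete was not tested, so the mitochondrial shares and ratios below describe counted UMIs only. Mitochondrial members took 1.75% of UMIs in MS-LS (1.74 to 1.76), 1.92% in OB-EB and 1.10% in EHF. Nuclear members took 4.22% in MS-LS (4.21 to 4.23), 3.66% in OB-EB and 3.32% in EHF. The nuclear share was thus lower in each later library, while the mitochondrial share was highest in the middle one. From MS-LS to OB-EB the mitochondrial sum differed by 0.13 on the log2 scale (0.12 to 0.14) and the nuclear sum by −0.21. The sums thus went in opposite directions, but the medians over genes did not. The median log2 ratio was −0.16 for the 13 mitochondrial members and −0.22 for the nuclear ones. Most of the mitochondrial sum comes from *mt-Nd1* and *mt-Cytb*. They held 108469 and 102167 of 314507 mitochondrial UMIs in MS-LS, and 87930 and 97019 of 233456 in OB-EB. From OB-EB to EHF the mitochondrial sum differed by −0.80 (−0.81 to −0.79) and the nuclear sum by −0.14. There were 0.415 mitochondrial UMIs per nuclear UMI in MS-LS, 0.523 in OB-EB and 0.331 in EHF. In single MS-LS cells the median mitochondrial share was 1.60% (quartiles 1.29 to 2.0) and the median nuclear share 4.36% (3.95 to 4.82).

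By complex, in MS-LS, the 7 *mt-Nd* genes, which encode subunits of complex I, took 1.02% of UMIs and *mt-Cytb*, the cytochrome b of complex III, took 0.569%. The 3 *mt-Co* genes of the catalytic core of complex IV took 0.0557%, and *mt-Atp6* and *mt-Atp8*, the membrane subunits of ATP synthase, took 0.107%. The 3′ ends of all 3 *mt-Co* genes and of *mt-Atp6* have near-identical nuclear copies, and whether their UMIs are complete was not tested. The nuclear members had 1.29% for complex I, 0.618% for complex III, 1.23% for complex IV and 1.02% for complex V. *Cox7c*, the nuclear complex IV member with the most UMIs, had 2371, 2011 and 1492 CPM in MS-LS, OB-EB and EHF. Of the 90-base windows at its 3′ end, 76.8% also occur in another gene. *Atp5g1*, a gene of the ATP synthase c-ring, had 1506, 1167 and 926 CPM, and 16.2% of its windows occur in another gene.

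Among the mitochondrial members, the values went in different directions between the same pair of libraries. *mt-Nd1* (chrM:2751-3707, plus strand, GRCm38) had 6037, 7218 and 4352 CPM in MS-LS, OB-EB and EHF. *mt-Cytb* (chrM:14145-15288, plus strand) had 5686, 7965 and 3719 CPM. Both were highest in OB-EB and lowest in EHF, and between OB-EB and EHF their log2 ratios were −0.73 and −1.10. *mt-Nd2* had 1540, 472.8 and 522.7 CPM, which puts MS-LS far above the other libraries (log2 ratio of OB-EB over MS-LS −1.70). *mt-Nd4*, another complex I subunit, had 2134, 1904 and 1605 CPM. *mt-Nd5* had 339, 206 and 174 CPM. *mt-Nd6*, the only member transcribed from the other strand of the mitochondrial genome, had 40.9, 54.9 and 22.1 CPM. Relative to MS-LS, 1 mitochondrial member was higher in OB-EB (*mt-Co3*) and 5 were lower (*mt-Atp6*, *mt-Atp8*, *mt-Nd2*, *mt-Nd3* and *mt-Nd5*), where 11.3% of the 9706 genes measured were higher and 13.6% lower. Relative to OB-EB, 2 mitochondrial members were higher in EHF (*mt-Atp8* and *mt-Nd3*) and 7 were lower, beside 37.0% higher and 11.0% lower of 10490 genes.

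The most extreme ratios were those of *mt-Atp6*, *mt-Nd4l*, *mt-Co2* and *mt-Co3* in EHF. *mt-Atp6* (chrM:7927-8607, plus strand) had 1016 CPM in MS-LS, 590 in OB-EB and 19.4 in EHF. Its log2 ratio of EHF over OB-EB was −4.93 (−5.08 to −4.78). *mt-Atp8*, which lies on the same transcript as *mt-Atp6* and overlaps its start, had 51.0, 24.7 and 56.2 CPM, so that it was higher in EHF than in OB-EB (log2 ratio 1.19) where *mt-Atp6* was lower. *mt-Co3* had 56.2, 141.5 and 15.1 CPM, *mt-Co2* had 29.3, 21.4 and 1.82 CPM, and *mt-Nd4l* had 9.74, 14.4 and 0.981 CPM. *mt-Co1* had 471, 522 and 462 CPM and was within 1.5-fold in every pair. *mt-Nd3* had 93.0, 30.7 and 60.8 CPM.

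*mt-Atp6*, *mt-Nd3*, *mt-Nd4l* and the *mt-Co* genes are also the members whose 3′ ends have a near-identical copy in the nuclear genome. A stretch of mitochondrial sequence lies at chr1:24611535-24616197 (minus strand, GRCm38), where the annotation has pseudogenes that the reads of these members can match. *mt-Atp6* and its copy *Gm10925* had 0 differences over 678 bases, *mt-Co2* and *Gm28661* had 0 over 681, and *mt-Co3* and *Gm28437* had 0 over 783. *mt-Nd4l* and *Gm10222* had 0 differences over 294 bases, *mt-Nd3* and *Gm28438* had 1 over 345, and *mt-Co1* and *Gm29216* had 6 over 492. *mt-Nd4* and *Gm28439* had 0 differences over 876 of its 1378 bases, a match that does not reach the 3′ end of *mt-Nd4*. By 90-base windows of the last 300 bases, at least 50% of the 3′ end of 6 mitochondrial members also occurred in another gene, and these 6 held 9.57%, 6.89% and 5.09% of the mitochondrial UMIs of MS-LS, OB-EB and EHF. *mt-Nd2*, which is not among the 6, shared 19.0% of these windows with the pseudogene *Gm13339*. The copies' own rows were low, with 40.9, 57.4 and 10.3 CPM for *Gm10925* and 14.1, 47.4 and 12.4 CPM for *Gm28437*. Where a gene and its copy are identical, these rows cannot show how UMIs were divided between them. How UMIs with more than 1 match were treated in each library was not tested. Without the copied members the mitochondrial share was 1.58%, 1.78% and 1.04%, and the order of the libraries did not change.

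The sequences of the pair of ATP synthase members are shown because their values moved in opposite directions between OB-EB and EHF although they share a transcript. Between MS-LS and OB-EB both were lower in the later library. Capitals in *mt-Atp8* (chrM:7766-7969, plus strand, GRCm38) mark the 43 bases that overlap *mt-Atp6* and occur in *Gm10925*, and capitals in the last 120 bases of *mt-Atp6* (chrM:8488-8607, plus strand) mark the 117 bases that *Gm10925* shares. The 3′ end of *mt-Atp6*, where this assay reads, is thus nearly all shared, while most of *mt-Atp8* is not.
mt-Atp8: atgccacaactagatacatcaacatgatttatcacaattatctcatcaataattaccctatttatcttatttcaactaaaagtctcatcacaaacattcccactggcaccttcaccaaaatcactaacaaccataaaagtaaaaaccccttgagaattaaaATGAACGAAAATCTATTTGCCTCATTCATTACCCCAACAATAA
mt-Atp6: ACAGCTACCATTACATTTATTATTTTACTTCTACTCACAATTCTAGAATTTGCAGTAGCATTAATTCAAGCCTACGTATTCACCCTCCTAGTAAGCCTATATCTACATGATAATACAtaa

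**Figure D1:**
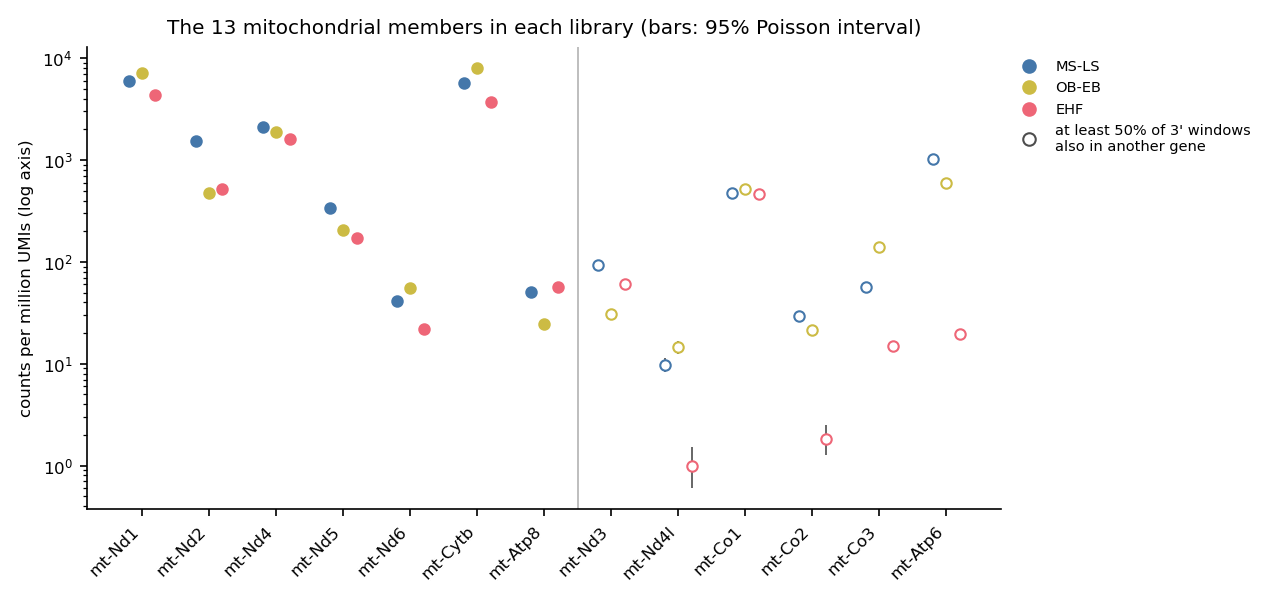
Level of each of the 13 mitochondrial members in the libraries of MS-LS, OB-EB and EHF embryos, in counts per 1000000 UMIs (CPM) on a log axis, with 95% Poisson intervals; open circles mark the 6 members whose 3′ ends have a near-identical copy. Levels are compared between libraries and not between genes, and *mt-Atp6* spans from 1016 CPM in MS-LS to 19.4 CPM in EHF.

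The same ratios were seen when the cell types of a pair of libraries were matched. In the 6 named classes with at least 50 cells in both MS-LS and OB-EB, the log2 ratio of *mt-Nd2* (OB-EB over MS-LS) ran from −1.68 to −1.24. In the 4 classes shared by OB-EB and EHF, the log2 ratio of *mt-Atp6* (EHF over OB-EB) ran from −5.46 to −4.45 and that of *mt-Cytb* from −1.13 to −1.02. Cells called female and cells called male, which come from different embryos of a pool, gave nearly the same levels. *mt-Nd2* had 1547 CPM in female and 1692 CPM in male MS-LS cells, and 474 and 535 CPM in OB-EB. *mt-Atp6* had 20.6 and 16.7 CPM in female and male EHF cells. The differences thus ran through the matched classes and through the cells called either sex. Since each stage is 1 library, such a difference cannot be told apart from one in how the libraries were prepared or read, and the read lengths are not given in the sources used here.

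Among the nuclear members, few passed 1.5-fold between MS-LS and OB-EB. In OB-EB, 2 of 84 measured members were higher (*Atp5l* and *Cox4i2*) and 7 were lower (*Atp5f1*, *Ndufa1*, *Ndufa8*, *Ndufaf4*, *Ndufv2*, *Uqcrb* and *Uqcrc2*), which are smaller shares than the 11.3% and 13.6% of all genes. The median log2 ratio of the 84 was −0.22, beside −0.09 for all genes. *Uqcrb* (chr13:66900617-66905378, minus strand), a small subunit of complex III, had 1683, 573.2 and 487.3 CPM in MS-LS, OB-EB and EHF. MS-LS stood alone at the high level, with a log2 ratio of OB-EB over MS-LS of −1.55 (−1.59 to −1.52). *Atp5f1* (chr3:105942698-105960099, minus strand), the b subunit of the peripheral stalk of ATP synthase, had 504, 229 and 506 CPM, so that OB-EB alone was low. *Uqcrb* was lower in OB-EB in 6 of 6 matched classes (log2 ratio −1.80 to −1.43), and *Atp5f1* in 6 of 6 (−1.34 to −1.02). Of the 90-base windows at its 3′ end, *Uqcrb* shared 29.4% with processed pseudogenes and *Atp5f1* shared 4.0%. *Atp5l*, named above as higher, shared 56.9% with other genes. The part of these copies in the levels was not tested.

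Between OB-EB and EHF the nuclear members divided. In EHF, 19 of 84 were higher and 17 lower, beside 37.0% and 11.0% of all genes, and their median log2 ratio was −0.05 beside 0.37 for all genes. The background depends on the level of the genes. Of the 3882 genes with at least 1000 UMIs, 1136 were higher and 432 lower, with a median of 0.25. By complex, 5 members of complex I were higher and 10 lower of 36, 3 of complex III were higher and 1 lower of 8, and 1 of complex IV was higher and 4 lower of 15. In complex V, 6 were higher and 2 lower of 15. *Atp5b* (chr10:128083273-128090391, plus strand), the catalytic β subunit of ATP synthase, had 644, 515 and 1301 CPM in MS-LS, OB-EB and EHF (log2 ratio of EHF over OB-EB 1.34, 1.30 to 1.38). *Uqcrc2* (chr7:120635176-120659524, plus strand), a core protein of complex III, had 101, 64.9 and 175 CPM (log2 ratio 1.43). EHF was the highest library for both. In the other direction, *Ndufa12* (chr10:94198720-94221443, plus strand), an accessory subunit of complex I, had 512, 448 and 153 CPM (log2 ratio −1.55). *Ndufab1* (chr7:122085403-122101886, minus strand), the mitochondrial acyl carrier protein that is also a subunit of complex I, had 565, 420 and 148 CPM (−1.51). *Ndufb4*, another accessory subunit of complex I, had 120, 173 and 71.9 CPM. EHF was the lowest library for all of them. *Ndufa12* and *Ndufab1* shared 23.5% and 22.2% of their 3′ windows with processed pseudogenes, and *Atp5b* and *Uqcrc2* shared 0.0%.

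In the comparison of EHF with MS-LS, 9 nuclear members were higher and 20 lower of 84, beside 28.4% and 8.84% of 10799 genes, and 0 mitochondrial members were higher and 9 lower of 13. Of the 4307 genes with at least 1000 UMIs, 776 were higher and 388 lower. *Atp5g2*, a c-ring gene, had 22.8, 27.9 and 64.9 CPM, the largest ratio among the nuclear members that were higher (log2 ratio of EHF over MS-LS 1.51), and at least 50% of its 3′ windows occur in another gene. *Ndufa10*, an accessory subunit of complex I, had 117, 114 and 201 CPM. *Ndufa1*, a small membrane subunit of complex I encoded on the X chromosome, had 340, 218 and 127 CPM and was lower in each later library. *Uqcrh*, the hinge protein of complex III, had 697, 621 and 693 CPM and *Ndufs7*, a catalytic subunit of complex I, had 264, 269 and 241 CPM, and neither passed 1.5-fold in any pair. The 3 comparisons share libraries and are not independent of one another.

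**Figure D2:**
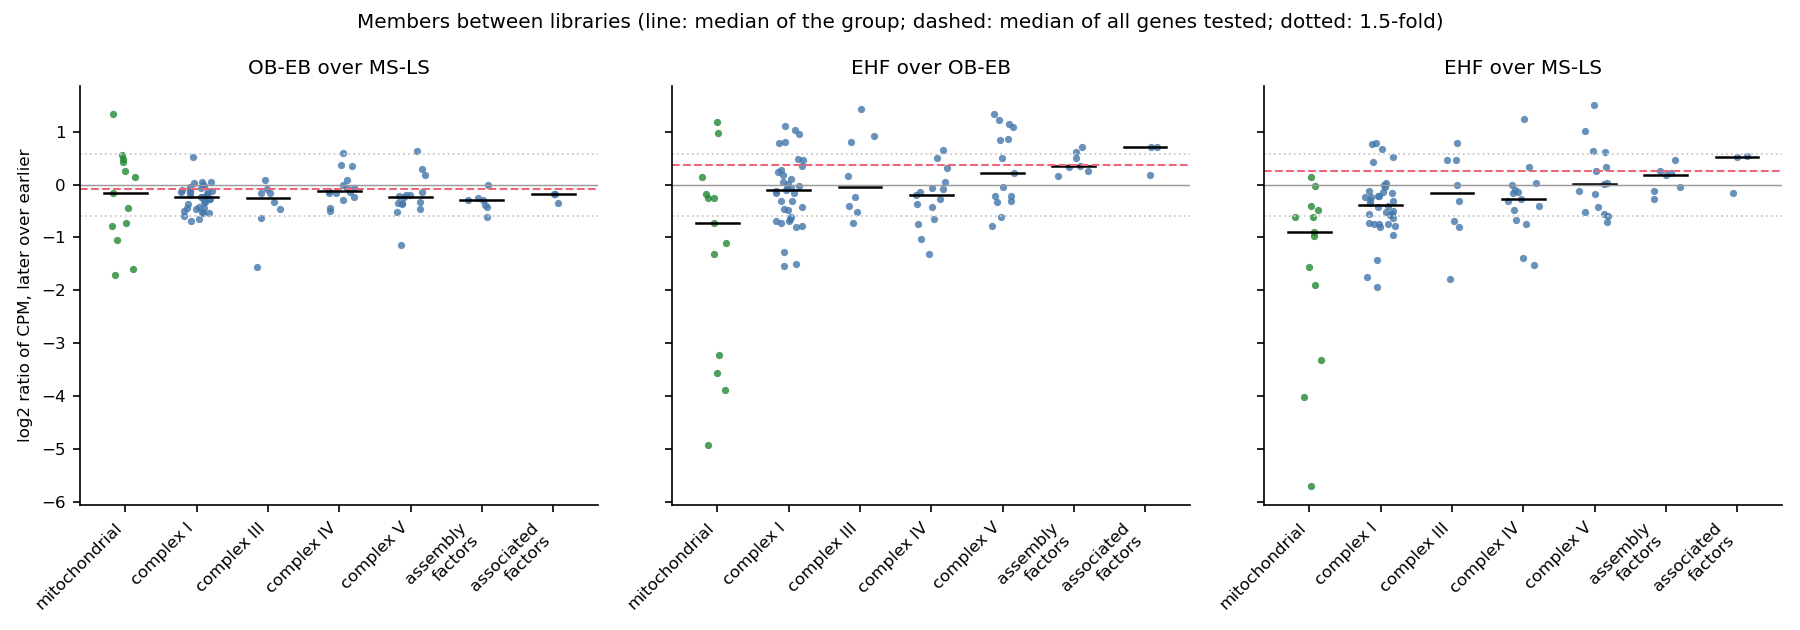
Log2 ratio of CPM, later over earlier library, for each measured member in the 3 pairs of libraries, with 1 point per gene grouped by genome, complex or role; black lines are group medians, the dashed line is the median of all genes and dotted lines mark 1.5-fold. For EHF over OB-EB the nuclear members spread to both sides around a median of −0.05, while the mitochondrial members have a median of −0.73.

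Nuclear members of different roles differed in direction. The 15 core subunits (the catalytic subunits of complex I, the core and iron-sulfur proteins of complex III and the F1 subunits of ATP synthase) were taken apart from the 60 accessory subunits. Accessory is used broadly here, for all other nuclear subunits. It takes in the c-ring genes and stalk subunits of ATP synthase, such as *Atp5f1*. In EHF relative to OB-EB, 10 of 15 core subunits were higher and 0 lower, with a median log2 ratio of 0.84 (37.0% and 11.0% of all genes), while 5 of 59 measured accessory subunits were higher and 17 lower, with a median of −0.23. The core subunits together took 0.436%, 0.342% and 0.541% of UMIs in MS-LS, OB-EB and EHF, and the accessory subunits took 3.72%, 3.27% and 2.70%. The core sum was highest in EHF, and the accessory sum was lowest there. In EHF relative to MS-LS, 6 core subunits were higher and 0 lower (median 0.47), and 3 accessory subunits were higher and 20 lower (median −0.41), beside 28.4% and 8.84% of all genes. In OB-EB relative to MS-LS, 0 core subunits were higher and 2 lower (median −0.34), and 2 accessory subunits were higher and 4 lower (median −0.16), beside 11.3% and 13.6% of all genes, which the core count is near and the accessory counts are below. The 7 assembly factors of complex I had 2 higher and 0 lower in EHF relative to OB-EB, with a median of 0.36 that lies at the median of all genes.

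Within the classes matched between OB-EB and EHF the same division was present. Relative to OB-EB, 8 of 13 measured core subunits were higher in EHF in definitive endoderm-like cells (beside 21.5% of all genes), 8 of 15 in extra-embryonic ectoderm-like cells (32.8%), 7 of 13 in extra-embryonic mesoderm-like cells (23.7%) and 9 of 15 in visceral endoderm-like cells (25.9%), and 0 were lower in each. Of the accessory subunits, 15 of 54 were lower in definitive endoderm-like cells (20.9% of all genes), 13 of 55 in extra-embryonic ectoderm-like cells (10.7%), 19 of 54 in extra-embryonic mesoderm-like cells (19.1%) and 12 of 56 in visceral endoderm-like cells (13.9%). The log2 ratio of *Atp5b* ran from 1.05 to 1.22 over these 4 classes and that of *Uqcrc2* from 1.10 to 1.64. That of *Ndufa12* ran from −1.87 to −1.62 and that of *Ndufab1* from −1.92 to −1.59. Between MS-LS and EHF the division was less clean. Of the core subunits, 6 were higher and 2 lower of 13 in definitive endoderm-like cells, 4 higher and 2 lower of 12 in endothelium-like cells (median log2 ratio 0.08), 4 higher and 0 lower of 15 in extra-embryonic ectoderm-like cells and 8 higher and 1 lower of 15 in visceral endoderm-like cells. Of the accessory subunits, 25 of 54, 18 of 52, 23 of 57 and 11 of 56 were lower in these classes. Those higher were 1, 0, 2 and 3. Of all genes, 16.3%, 16%, 22.8% and 14.7% were higher in these classes and 20.3%, 15%, 9.54% and 12.6% lower. The count of core subunits higher in extra-embryonic ectoderm-like cells, and of those lower in endothelium-like cells, is near the share of all genes.

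Core and accessory subunits also differ in transcript length. The median annotated transcript was 1000 bases long for the core subunits and 621.5 for the accessory subunits, and 46.7% of core but 88.3% of accessory subunits were under 1000 bases. Over all genes the median log2 ratio of EHF over OB-EB was 0.15 for the 712 genes under 700 bases and 0.52 for the 1376 genes from 1000 bases to under 1500. The 38 accessory subunits under 700 bases had a median of −0.29, with 1 higher and 11 lower, beside 28.4% and 14.2% of all genes of that length. The 5 accessory subunits from 1000 bases to under 1500 had a median of 0.82. The core subunits had a median of 0.80 under 700 bases (3 genes), 0.27 from 700 bases to under 1000 (4 genes) and 0.90 from 1000 bases to under 1500 (6 genes). The 14 accessory subunits from 700 bases to under 1000 had a median of −0.12, beside 0.41 for all genes of that length. Accessory subunits under 1000 bases thus lay below genes of their length. Of the 7 longer ones, the 5 just given did not, while the 1 from 1500 bases to under 2500 had −0.72 beside 0.49 for all genes of that length and the 1 of 2500 bases or more had −0.33 beside 0.25. Role and length cannot be told apart with so few long accessory and short core subunits.

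Summed over members, matched classes gave the directions of the whole libraries. Between MS-LS and OB-EB, the mitochondrial sum was higher in OB-EB in all 6 matched classes, with log2 ratios of 0.19 in primitive streak-like, 0.20 in extra-embryonic ectoderm-like and in visceral endoderm-like, 0.28 in definitive endoderm-like, 0.29 in epiblast-like and 0.44 in node and notochord-like cells. The nuclear sum was lower in all 6, from −0.36 in definitive endoderm-like cells to −0.05 in visceral endoderm-like cells. Between OB-EB and EHF, the mitochondrial sum had log2 ratios from −0.87 in visceral endoderm-like to −0.78 in extra-embryonic mesoderm-like cells, and the nuclear sum from −0.27 to −0.10. The mitochondrial differences were thus similar in size over the 4 classes matched between OB-EB and EHF, and spread more widely over the 6 matched between MS-LS and OB-EB. Nuclear members passing 1.5-fold between MS-LS and OB-EB were more often lower than higher in each class, and the share lower was above that of all genes in 3 classes and below it in the other 3. There were 17 lower and 0 higher of 72 in definitive endoderm-like cells and 13 lower and 0 higher of 79 in epiblast-like cells, beside 18.5% and 12.8% of all genes lower and 15.3% and 15.2% higher. In extra-embryonic ectoderm-like cells 11 were lower and 1 higher of 75 (all genes 12.4% and 9.16%), in node and notochord-like cells 5 and 0 of 49 (15.6% and 11.9%), in primitive streak-like cells 7 and 2 of 71 (13.2% and 12.3%) and in visceral endoderm-like cells 5 and 1 of 75 (12.7% and 6.48%). In definitive endoderm-like cells, 28 of 70 nuclear members were lower and 8 higher in EHF relative to MS-LS, beside 20.3% and 16.3%. In the same comparison, 21 were lower and 4 higher of 67 in endothelium-like cells (15% and 16%), 23 lower and 8 higher of 80 in extra-embryonic ectoderm-like cells (9.54% and 22.8%), and 12 lower and 12 higher of 77 in visceral endoderm-like cells (12.6% and 14.7%).

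Cell types were rebuilt by clustering each library with the members held out of the variable genes, and clusters were named from marker genes, so that a class is called after the cell type whose markers it holds (visceral endoderm-like and so on). In MS-LS 8, in OB-EB 7 and in EHF 13 classes had at least 50 cells, and 1125, 1721 and 1258 cells stayed unnamed. A class set against the other cells of its library is a description, since the clusters were made from the same cells.

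Visceral endoderm-like cells had the highest mitochondrial share of all named classes in each library. These 537, 285 and 333 cells had a mitochondrial share of 2.57% in MS-LS (2.55 to 2.59), 2.96% in OB-EB (2.93 to 2.99) and 1.61% in EHF (1.60 to 1.63), beside 1.59%, 1.81% and 1.04% in the other cells. The log2 ratios were 0.69, 0.70 and 0.64, so the excess was of similar size at every stage while the level itself was lowest in EHF. Their nuclear share was 4.39%, 4.23% and 3.93%, beside 4.19%, 3.61% and 3.25% in the other cells, with log2 ratios of 0.07, 0.23 and 0.28. They held 0.586, 0.70 and 0.411 mitochondrial UMIs per nuclear UMI, the highest of the named classes in each library. Ribosomal protein genes took 21.1%, 21.0% and 21.5% of their UMIs, well below the other cells (log2 ratios −0.44, −0.42 and −0.39). On a scale that leaves out mitochondrial and ribosomal protein UMIs, the mitochondrial log2 ratios were 0.56, 0.59 and 0.52, and the nuclear ones were −0.06, 0.11 and 0.16. The small nuclear excess in MS-LS thus changed sign with the scale, and the mitochondrial one kept its direction.

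By gene, 8 of 13 mitochondrial members were higher in visceral endoderm-like cells of MS-LS, 5 of 13 in OB-EB and 4 of 11 in EHF, where 27.9%, 23.2% and 19.8% of all genes were higher. *mt-Nd1* had 8962, 12801 and 7026 CPM in these cells against 5474, 6673 and 4022 CPM in the others. *mt-Cytb* had 8620, 11187 and 5235 CPM against 5121, 7650 and 3532 CPM. Of the nuclear members, 8 of 83, 11 of 82 and 11 of 84 were higher and 8, 4 and 6 were lower, which are smaller shares than those of all genes (22.6%, 26.9% and 30.8% lower). *Uqcrq*, *Cox5a*, *Atp5g3*, *Ndufb11* and *Cox7a1* were higher in all 3 libraries, and *Atp5sl*, *Cox6b2*, *Ndufa4l2* and *Ndufaf2* were lower in all 3.

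The nuclear members that set these cells apart belong to different complexes. *Uqcrq* (chr11:53427922-53430831, minus strand), a small subunit of complex III, had 1697, 1707 and 1195 CPM in visceral endoderm-like cells of MS-LS, OB-EB and EHF and 938, 873 and 594 CPM in the other cells, a log2 ratio of 0.86, 0.97 and 1.01. *Cox5a*, a subunit of complex IV, had 1167, 957 and 1309 CPM against 772, 579 and 695 CPM. *Atp5g3*, a c-ring gene of ATP synthase, had 783, 720 and 644 CPM against 464, 420 and 352 CPM. *Ndufb11*, an X-linked accessory subunit of complex I, had 513, 448 and 378 CPM against 279, 233 and 234 CPM. *Ndufaf2* (chr13:108002715-108158623, minus strand), an assembly factor of complex I, had 65.8, 67.4 and 83.6 CPM in visceral endoderm-like cells and 169, 184 and 217 CPM in extra-embryonic ectoderm-like cells, its opposite extreme. As sums, complex III had the largest nuclear excess in these cells (log2 ratio 0.22, 0.43 and 0.47), and complex I had −0.05, 0.13 and 0.17.

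**Figure D3:**
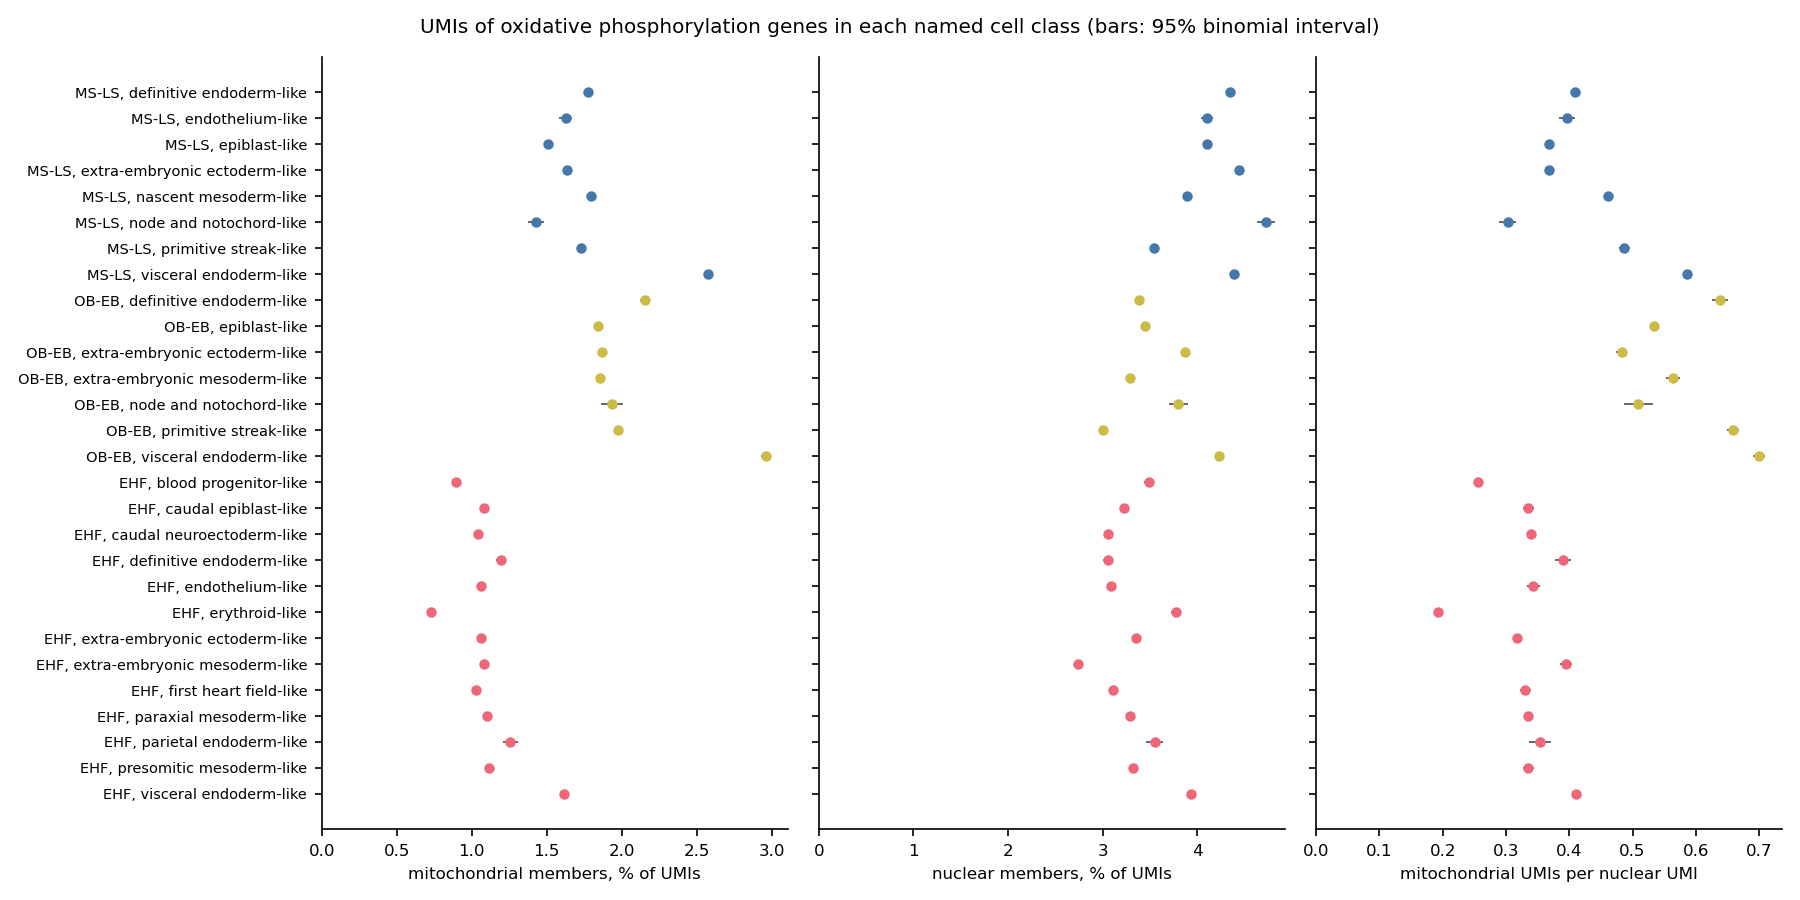
Share of UMIs of the mitochondrial members (left) and nuclear members (middle), in percent, and mitochondrial UMIs per nuclear UMI (right), in each named class with at least 50 cells, coloured by library, with 95% binomial intervals. Visceral endoderm-like cells lie furthest right in the left and right panels in each library, and EHF erythroid-like cells lie furthest left, at 0.725% and 0.192.

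Erythroid-like cells of EHF lay at the other end. These 160 cells had a mitochondrial share of 0.725% (0.705 to 0.746) beside 1.11% in the other cells (log2 ratio −0.62), the lowest of the 13 named classes. Their nuclear share was 3.77% beside 3.31% (log2 ratio 0.19), the second highest. There were 0.192 mitochondrial UMIs per nuclear UMI (0.187 to 0.198), the lowest ratio of any named class. Single cells varied widely, with quartiles of the mitochondrial share at 0.204% and 0.996%. They held fewer UMIs per cell on average than their library. Within the class, Spearman's rho with depth (UMIs per cell) was 0.28 for the mitochondrial and −0.399 for the nuclear share. The total enters both quantities. The part of depth in the low mitochondrial and high nuclear share was not tested. Of the mitochondrial members 0 were higher and 5 lower of 11, beside 10.6% higher and 34.4% lower of all genes. *mt-Nd4* had 807 CPM in erythroid-like and 1633 CPM in other cells, *mt-Cytb* 2400 and 3765 CPM, and *mt-Nd1* 3101 and 4395 CPM. The nuclear members that were higher were *Atp5g1*, *Ndufa5*, *Ndufaf4*, *Ndufb10* and *Uqcr11*, 5 of 84, and 6 were lower. *Atp5g1* had 1641 CPM against 901 CPM (log2 ratio 0.86), *Uqcr11*, a small subunit of complex III, had 1129 against 682 CPM, and *Ndufa5*, an accessory subunit of complex I, had 467 against 293 CPM.

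Blood progenitor-like cells (125 cells) lay between erythroid-like cells and the rest, with a mitochondrial share of 0.892%, a nuclear share of 3.49% and 0.256 mitochondrial UMIs per nuclear UMI. *Atp5g1* had 1467 CPM there against 907 CPM in other cells. *Ndufaf4*, an assembly factor of complex I, had 215 against 122 CPM. The erythroid-like result depends on how finely blood was divided. At resolution 2, where 229 cells took the name, the mitochondrial log2 ratio was −0.35 and the nuclear one 0.10.

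Primitive streak-like cells had the lowest nuclear share of the named classes in MS-LS and OB-EB, at 3.55% (113 cells, log2 ratio to the other cells −0.27) and 3.00% (345 cells, −0.32). Their mitochondrial share was 1.73% and 1.98%, near the library values. Few members passed 1.5-fold, with 1 higher and 5 lower of 83 in MS-LS (11.7% and 15.9% of all genes) and 0 higher and 3 lower of 82 in OB-EB (9.9% and 9.62%). The median log2 ratios of the nuclear members were −0.27 and −0.34, so that the deficit was spread over many genes. The deficit depends on how streak cells were named. When cells took their names from the supplementary annotation in place of the rebuilt clusters, 318 and 252 cells were streak cells, and the nuclear log2 ratios were −0.16 and 0.016, which changes the sign in OB-EB. *Uqcrq* had 711 and 713 CPM in these cells against 1083 and 979 CPM in the others, and *Ndufb11* had 205 and 192 CPM against 324 and 260 CPM. *Ndufaf4* lay in the other direction, at 219 and 135 CPM against 146 and 94.0 CPM.

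Depth moved with this result. Primitive streak-like cells had a median of 8483 and 3569 UMIs per cell, above the medians of their libraries. Within each library, the cells were divided into 3 equal groups by depth. The shallowest group had a nuclear share of 4.65% in MS-LS, 4.18% in OB-EB and 3.60% in EHF, and the deepest group had 3.94%, 3.33% and 3.20%. Spearman's rho of nuclear share and depth was −0.431 over 3635 cells, −0.418 over 3994 and −0.334 over 3494, with the total in both quantities. The part of depth in the low nuclear share was not tested.

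In EHF, extra-embryonic mesoderm-like cells had the lowest nuclear share, 2.74% (104 cells, log2 ratio −0.29), with 2 nuclear members higher and 13 lower of 84 beside 14.9% and 21.7% of all genes. Node and notochord-like cells of MS-LS (56 cells) combined the highest nuclear share, 4.72%, with the lowest mitochondrial share, 1.43%, and had 0.303 mitochondrial UMIs per nuclear UMI. These cells held fewer UMIs per cell on average than their library, while the extra-embryonic mesoderm-like cells of EHF held more. The shallowest depth group of MS-LS had a nuclear share of 4.65% and a mitochondrial share of 1.59%. The part of depth in the shares of both classes was not tested. The mitochondrial shares of node and notochord-like and epiblast-like cells (1.51%) did differ beyond counting error, while most neighbours in the EHF order between 1.03% and 1.11% did not. In parietal endoderm-like cells of EHF (64 cells) *Cox6a1*, a subunit of complex IV, had 1202 CPM against 506 CPM in other cells (log2 ratio 1.25), *Ndufa1* had 271 against 126 CPM, and *Ndufb11* had 440 against 248 CPM.

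The balance among mitochondrial members also differed between classes. *mt-Nd1* and *mt-Cytb* lie at opposite ends of the same strand's transcript. There were 1.06, 0.906 and 1.17 *mt-Nd1* UMIs per *mt-Cytb* UMI in MS-LS, OB-EB and EHF. In extra-embryonic ectoderm-like cells the ratio was 1.41 (1.38 to 1.44), 1.24 and 1.62, and in definitive endoderm-like cells 0.845, 0.80 and 0.833. Extra-embryonic ectoderm-like cells were above, and definitive endoderm-like cells below, the library value in each library. *mt-Nd1* had 6494, 8249 and 4916 CPM and *mt-Cytb* 4604, 6658 and 3039 CPM in extra-embryonic ectoderm-like cells.

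*mt-Nd6* (chrM:13552-14070, minus strand) stood out in the same class. It had 83.6, 131 and 40.1 CPM in extra-embryonic ectoderm-like cells of MS-LS, OB-EB and EHF and 32.0, 48.6 and 18.3 CPM in the other cells, a log2 ratio of 1.39, 1.43 and 1.13. Per 1000 *mt-Nd1* UMIs there were 12.9, 15.9 and 8.15 *mt-Nd6* UMIs in this class, the highest value of the named classes in each library, beside 6.77, 7.61 and 5.08 in the whole libraries. In visceral endoderm-like cells there were 5.61, 4.76 and 2.10. Visceral endoderm-like cells, with the most mitochondrial UMIs, thus did not have the most of this gene of the other strand. *Ndufaf2* was also higher in extra-embryonic ectoderm-like cells, with log2 ratios of 0.60, 0.68 and 0.75.

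**Figure D4:**
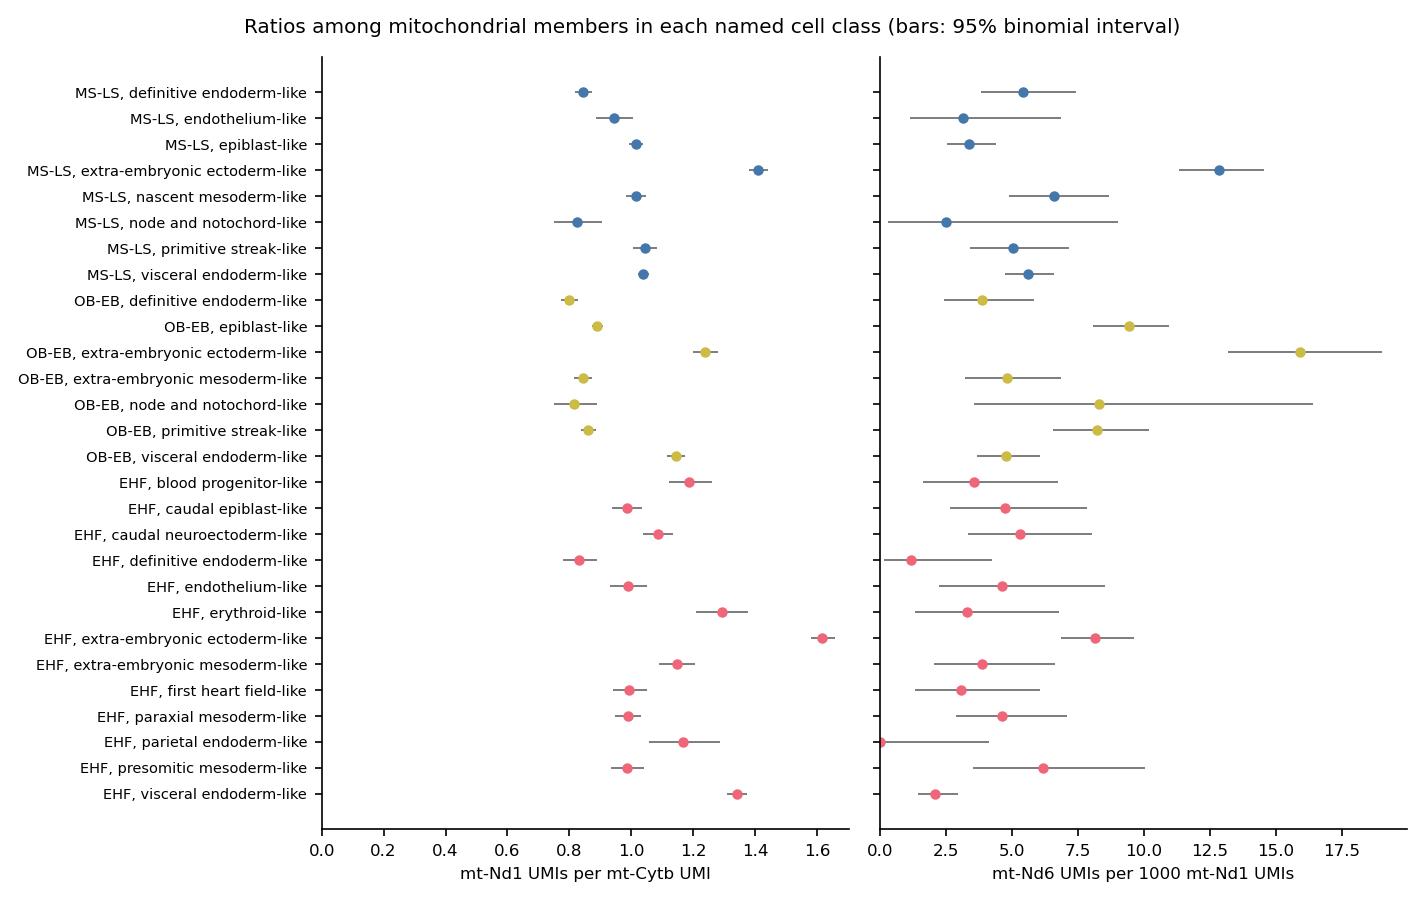
UMIs of *mt-Nd1* per UMI of *mt-Cytb* (left) and UMIs of *mt-Nd6* per 1000 UMIs of *mt-Nd1* (right) in each named class, coloured by library, with 95% binomial intervals. Extra-embryonic ectoderm-like cells have the highest *mt-Nd6* value in each library, at 12.9, 15.9 and 8.15.

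Several complex IV subunits have a second form known from particular adult tissues, and these forms were present at low levels in particular classes. *Cox7a1* (chr7:30184144-30186078, plus strand), the heart and muscle form of subunit 7a, was highest in visceral endoderm-like cells, at 80.3 CPM in MS-LS (70.3 to 91.3), 69.2 CPM in OB-EB and 36.7 CPM in EHF, against 23.8, 18.9 and 8.43 CPM in the other cells. Definitive endoderm-like cells had 56.5, 38.8 and 9.18 CPM. In EHF, first heart field-like cells had 10.0 CPM of *Cox7a1*, below visceral endoderm-like cells, and blood progenitor-like, endothelium-like and erythroid-like cells had 1 UMI each. Even in visceral endoderm-like cells of MS-LS, *Cox7a1* made up 5.15% of the UMIs of *Cox7a1*, *Cox7a2* and *Cox7a2l*, of which *Cox7a2*, the broadly expressed form, held 82.0%, 82.8% and 72.4% in the whole libraries.

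*Cox4i2* (chr2:152754173-152765037, plus strand), the lung form of subunit 4, had the opposite pattern. It had 5.01, 7.55 and 11.9 CPM in MS-LS, OB-EB and EHF. In EHF it had 40.7 CPM (27.9 to 57.5) in extra-embryonic mesoderm-like, 35.8 CPM in first heart field-like and 25.5 CPM in endothelium-like cells, intervals that overlap, and 0.894 CPM (2 UMIs) in visceral endoderm-like cells. In OB-EB it had 18.4 CPM in extra-embryonic mesoderm-like and 14.7 CPM in primitive streak-like cells and 0 UMIs in extra-embryonic ectoderm-like cells, which allows up to 3.23 CPM at 3 UMIs. It was 0.487%, 0.818% and 0.915% of the UMIs of *Cox4i1* and *Cox4i2* in the 3 libraries, and 3.71% in EHF extra-embryonic mesoderm-like cells. *Ndufa4l2* (chr10:127514967-127517154, plus strand), a relative of *Ndufa4* known to be induced by hypoxia, was likewise highest in mesodermal and endothelium-like classes, with 33.8 CPM in endothelium-like and 33.1 CPM in nascent mesoderm-like cells of MS-LS, 40.0 CPM in extra-embryonic mesoderm-like cells of OB-EB and 21.6 CPM in those of EHF. Visceral endoderm-like cells had 2.76, 2.77 and 0.447 CPM and extra-embryonic ectoderm-like cells 2.92, 4.30 and 0.847 CPM.

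The testis forms differed from each other. *Cox6b2* had 22.3, 28.7 and 22.2 CPM in MS-LS, OB-EB and EHF and was present in every class, lowest in visceral endoderm-like cells among the MS-LS and OB-EB classes (9.65 and 6.46 CPM). *Cox7b2* had 5 UMIs in OB-EB and 5 in EHF. Of the 3 c-ring genes, which encode the same mature protein, *Atp5g1* held 73.7%, 71.1% and 67.3% of their UMIs and *Atp5g2* held 1.12%, 1.70% and 4.72%. *Cox7a2l*, a factor of respiratory supercomplexes, had 229, 203 and 332 CPM.

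**Figure D5:**
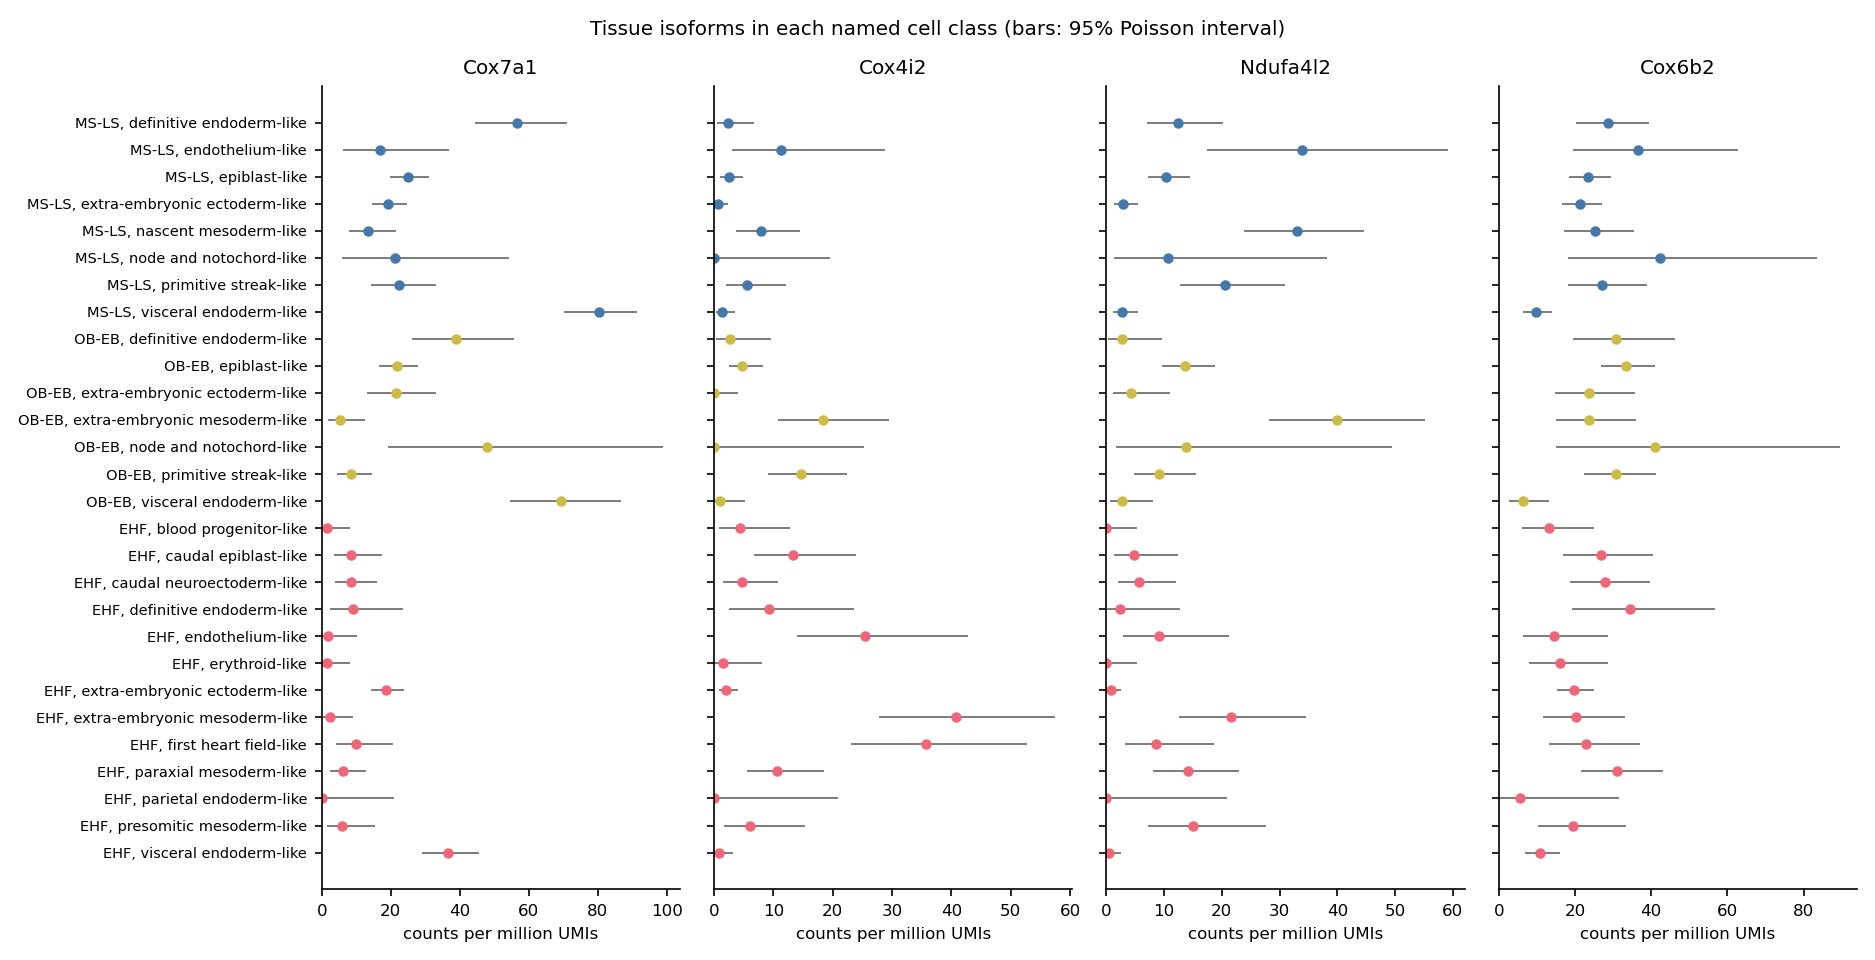
Level of *Cox7a1*, *Cox4i2*, *Ndufa4l2* and *Cox6b2* in each named class of the 3 libraries, in counts per 1000000 UMIs (CPM), with 95% Poisson intervals. *Cox7a1* is highest in visceral endoderm-like cells, at 80.3, 69.2 and 36.7 CPM, while *Cox4i2* and *Ndufa4l2* peak in mesodermal and endothelium-like classes.

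Lists of other mitochondrial genes gave a frame for the nuclear members. Between OB-EB and EHF, where 37.0% of all genes were higher and 11.0% lower, the citric acid cycle list had 11 genes higher and 0 lower of 14 (median log2 ratio 0.80), complex II and its assembly factors 4 higher and 0 lower of 8 (0.59), and cytochrome c and the electron carriers 8 higher and 1 lower of 15 (0.70). Genes of mitochondrial transcription, RNA handling and translation had 15 higher and 1 lower of 30 (0.62), and the mitochondrial ribosome 18 higher and 5 lower of 76 (0.39). A list of further assembly factors, of complexes I and III to V, had 12 higher and 6 lower of 36 (0.35). It also holds some subunits and *Atpif1*, an inhibitor of ATP synthase. These medians are near or above the 0.37 of all genes, as was that of the core subunits. Regulators of mitochondrial genes had 3 higher and 1 lower of 9 (0.13), and their median, like that of the accessory subunits, lay below it. The glycolysis list had 11 higher and 1 lower of 20 (0.70), and the cytosolic ribosomal proteins 25 higher and 12 lower of 97 (0.17). The share higher in both ribosomal lists was below that of all genes. Between MS-LS and OB-EB the citric acid cycle list had 0 higher and 4 lower of 14 (−0.44) and glycolysis 1 higher and 9 lower of 20 (−0.45), beside −0.22 for the nuclear members and 11.3% higher and 13.6% lower of all genes. In visceral endoderm-like cells 5, 5 and 3 of 14 citric acid cycle genes were higher and 0 lower than in the other cells of MS-LS, OB-EB and EHF, while 9 of 19, 8 of 17 and 10 of 20 glycolysis genes were lower and 3, 2 and 3 higher. Of all genes 27.9%, 23.2% and 19.8% were higher and 22.6%, 26.9% and 30.8% lower, so the citric acid cycle count in EHF is near the share of all genes.

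Promoter sequence was examined because nuclear members are transcribed separately and the factors NRF1, YY1 and the ETS factor GABP are known to act on many of them. A RefSeq promoter (GRCm38.p6, 250 bases before to 50 after the start) was matched for 72 of the 85 nuclear members. The NRF1 core motif GCATGCGC, searched like the others on both strands, was found in 11 of 72 (15.3%), beside 2.8% of all 27025 promoters and 5.52% of the 10390 promoters of genes with a row in all 3 tables (shared genes). Its members were *Atp5g2*, *Atp5k*, *Atp5l*, *Cox6a1*, *Ndufa6*, *Ndufa8*, *Ndufa11*, *Ndufaf4*, *Ndufaf5*, *Uqcr11* and *Uqcrc1*. The YY1 motif AAGATGGCG was in 7 of 72 (9.72%), beside 1.49% of all promoters and 3.18% of those of shared genes, and all 7 matches began 23 to 36 bases after the start. The ETS motif CCGGAAG was in 19.4% (9.12% and 17.9%), the CRE motif TGACGTCA in 5.56% (1.88% and 3.3%), the TATAAA motif in 8.33% (14.2% and 6.65%) and the ERR motif TCAAGGTCA in 1.39% (0.407% and 0.26%). The share of members with the NRF1 or YY1 motif was thus above that of shared genes, and that with the ETS motif was close to it. A match is a description of letters in this window, and no binding was measured.

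The promoters of 4 members are shown for what they hold, with NRF1, ETS and YY1 matches in capitals. *Cox6a1* (chr5:115348909-115349208, minus strand) holds the NRF1 motif in both orientations, which overlap, and, on the other strand, the ETS motif. *Ndufc1* (chr3:51408906-51409205, minus strand) and *Ndufs7* (chr10:80249199-80249498, plus strand) hold the YY1 motif just after the start, and *Ndufs7* also has TATAAA in lower case before it. *Cox7a1* (chr7:30183921-30184220, plus strand), the form that was highest in visceral endoderm-like cells, holds none of these motifs.
Cox6a1: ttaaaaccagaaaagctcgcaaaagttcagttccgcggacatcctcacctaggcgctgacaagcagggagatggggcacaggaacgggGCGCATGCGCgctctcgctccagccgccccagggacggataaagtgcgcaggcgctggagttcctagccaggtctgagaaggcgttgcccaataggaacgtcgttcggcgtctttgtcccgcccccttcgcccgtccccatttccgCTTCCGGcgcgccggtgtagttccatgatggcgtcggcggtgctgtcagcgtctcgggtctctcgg
Ndufc1: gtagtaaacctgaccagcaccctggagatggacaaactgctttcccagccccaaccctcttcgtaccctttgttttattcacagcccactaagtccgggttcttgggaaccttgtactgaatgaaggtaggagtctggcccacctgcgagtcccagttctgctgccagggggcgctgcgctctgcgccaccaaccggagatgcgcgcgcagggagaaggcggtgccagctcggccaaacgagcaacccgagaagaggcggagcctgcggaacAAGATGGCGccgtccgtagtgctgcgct
Ndufs7: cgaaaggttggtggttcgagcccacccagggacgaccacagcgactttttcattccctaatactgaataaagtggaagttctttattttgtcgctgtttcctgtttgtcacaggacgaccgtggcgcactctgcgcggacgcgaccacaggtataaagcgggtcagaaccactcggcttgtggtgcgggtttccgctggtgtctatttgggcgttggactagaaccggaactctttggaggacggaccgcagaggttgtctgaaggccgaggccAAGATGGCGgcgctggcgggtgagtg
Cox7a1: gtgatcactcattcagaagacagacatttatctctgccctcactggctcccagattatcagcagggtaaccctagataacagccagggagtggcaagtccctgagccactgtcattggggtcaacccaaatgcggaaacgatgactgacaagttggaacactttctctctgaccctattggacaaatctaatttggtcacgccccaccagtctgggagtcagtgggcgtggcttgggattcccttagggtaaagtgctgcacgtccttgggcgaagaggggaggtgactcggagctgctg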

How the data were processed

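The data are Chromium 3′ v2 libraries of dissociated mouse embryos, 1 for each of the 3 stages. Reads were aligned and UMIs counted by the authors with Cell Ranger 3.0.2 against GRCm38 (Ensembl release 86) with reporter sequences added; the submitters' processing notes also name R 3.6.1 and Seurat 3. The authors removed barcodes with fewer than 500 genes, fewer than 1000 UMIs or a high mitochondrial share, and deposited raw UMI counts without normalization. The filter on mitochondrial share bounds the mitochondrial members, and applied again as the mean plus 3 SD it left 3603, 3953 and 3449 cells. A second EHF table differed in 0 counts and in 21 gene names, of which 0 were members, and was counted with the first as 1 library.

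UMIs were summed over cells, divided by the total and given as percent or CPM. A ratio was counted at 1.5-fold where both groups together held 100 UMIs or more, and a group at 0 was set against 3 UMIs. Clusters were made in R 4.3.3 with Seurat 5.3.0 (2000 variable genes without the members, 50 components, resolution 4.5), and a cluster was named from the markers of 23 cell types only with 3 detected markers (in 20% of its cells and 2-fold over other cells). Doublets were kept, and leaving out the 5% of cells with the highest Scrublet scores (182, 200 and 175) was an alternative. A cell was called female or male from *Xist* and Y-linked UMIs, which gave 869 and 812, 1120 and 653, and 1870 and 312 cells. Scanpy 1.11.5, leidenalg 0.10.2, scikit-learn 1.9.0, matplotlib 3.10.9, pandas 2.3.3, scipy 1.17.1 and numpy 2.4.6 were used under Python 3.11.15. Gene positions come from a GENCODE annotation of GRCm38 and promoters from RefSeq.

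Members, lists and rules were chosen with earlier results of these data known. Genes named are the mitochondrial members, isoform members, the nuclear member with the most UMIs in each complex, and the members with the largest ratios in each comparison. *Cox5a*, *Uqcrh*, *Ndufs7* and members named only within a count or for a motif fall outside this rule and were added once values were known. The ratio was tested on simulated counts. With 1 library per stage, no test between stages was made. Depth enters through the interval of each level.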

Additional observations from a re-analysis of the deposited data

How the results depend on the processing

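For 65 sums, ratios, counts and levels, the alternatives gave 403 further values, of which 240 moved by less than their counting interval or, for counts, by less than 1.5 times, and 5 changed sign. Shares below are mitochondrial then nuclear, for MS-LS, OB-EB and EHF in turn, and ratios are on the log2 scale against the other cells of the library. With cells of at least 2000 UMIs the shares were 1.76% and 4.21%, 1.94% and 3.57%, and 1.11% and 3.31%, and the visceral endoderm-like ratios of OB-EB were 0.69 and 0.27. With the mitochondrial limit applied again the mitochondrial shares were 1.74%, 1.89% and 1.09%, the visceral endoderm-like mitochondrial ratios 0.66, 0.63 and 0.59 and the nuclear one of OB-EB 0.25. In cells called female the shares were 1.79% and 4.16%, 1.99% and 3.61%, and 1.13% and 3.25%, and in cells called male 1.87% and 4.09%, 2.07% and 3.34%, and 1.16% and 3.3%. The visceral endoderm-like mitochondrial ratios were 0.77, 0.63 and 0.61 in female and 0.61, 0.68 and 0.46 in male cells. The nuclear ones were 0.0225 in MS-LS and 0.24 in OB-EB in female cells, and 0.31 in OB-EB and 0.30 in EHF in male cells. The erythroid-like nuclear ratio in female cells was 0.17.

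On the scale outside mitochondrial and ribosomal protein UMIs the shares were 2.48% and 5.97%, 2.72% and 5.2%, and 1.54% and 4.65%. There the visceral endoderm-like ratios were 0.56 and −0.062 in MS-LS, 0.59 and 0.11 in OB-EB, and 0.52 and 0.16 in EHF, the erythroid-like nuclear ratio was 0.22, and the nuclear ratio of EHF over OB-EB in visceral endoderm-like cells was −0.12. Averaged over cells, the shares were 1.68% and 4.4%, 1.86% and 3.86%, and 1.08% and 3.43%, the visceral endoderm-like mitochondrial ratios 0.73, 0.73 and 0.72, the nuclear ones of OB-EB and EHF 0.20 and 0.26, and the erythroid-like mitochondrial ratio −0.71. Without the 5% of cells with the highest Scrublet scores the nuclear shares of MS-LS and EHF were 4.24% and 3.33%, and the visceral endoderm-like ratios of EHF 0.66 and 0.29. The nuclear share was lower in each later library, and the mitochondrial share highest in OB-EB and lowest in EHF, under each of these settings.

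A minimum of 1000 UMIs left 1 nuclear member higher in OB-EB than in MS-LS, beside 347 of all 3409 genes with as many UMIs. At 2-fold, 0 were higher and 2 lower in OB-EB over MS-LS, 7 and 5 in EHF over OB-EB, and 3 and 6 in EHF over MS-LS, a construction that counts fewer genes. The share of all genes at 2-fold is not given here, so these counts are not read as a result about the members. At resolution 2 the visceral endoderm-like nuclear ratios were 0.082 in MS-LS and 0.21 in OB-EB, the erythroid-like ratios −0.35 and 0.10, and the nuclear ratio between stages in visceral endoderm-like cells −0.0865 for OB-EB over MS-LS and −0.083 for EHF over OB-EB. With Leiden clustering the visceral endoderm-like nuclear ratio of MS-LS was 0.079 and the erythroid-like ratios −0.35 and 0.10. Primitive streak-like cells of OB-EB had a mitochondrial ratio of 0.05, which was −0.14 in male cells, −0.10 with the supplementary cell names and −0.0685 against named cells alone, and their nuclear ratio was 0.016 with the supplementary names. Those names were held in part only, and for EHF not at all. The cause of these changes was not tested.

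The last alternatives were chosen after seeing the data. Without members that have a near-identical copy, the shares were 1.58% and 3.96%, 1.78% and 3.42%, and 1.04% and 3.14%, the visceral endoderm-like ratios 0.70 and 0.082 in MS-LS and 0.73 for the mitochondrial one in OB-EB, and the mitochondrial ratio of OB-EB over MS-LS in these cells 0.25. Against named cells alone, the visceral endoderm-like ratios were 0.64 and 0.082 in MS-LS and 0.63 and 0.32 in OB-EB, and the erythroid-like mitochondrial ratio was −0.67. For 38 contrasts of other classes, 20 of 448 values changed sign, in 9 contrasts of which the main size was at most 0.124. No paired analysis was possible because each stage has 1 library and no replicate numbers are shared between stages.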

Other observations

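In single cells thinned to 1500 UMIs, Spearman's rho between the mitochondrial and the nuclear share was −0.122 over 3534 MS-LS cells, −0.275 over 3588 OB-EB cells and −0.108 over 3329 EHF cells. Within visceral endoderm-like cells it was −0.312, −0.478 and −0.05. Both shares have the same total, which pulls such a value down, and no p is given. The mitochondrial share of 3 equal groups of cells by depth, from shallow to deep, was 1.59%, 1.66% and 1.85% in MS-LS, 1.77%, 1.87% and 1.99% in OB-EB, and 1.10%, 1.16% and 1.06% in EHF, so that it went up with depth in 2 libraries where the nuclear share went down.

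*Cox4i1*, the broadly expressed form of subunit 4 of complex IV, had 1382, 1296 and 1470 CPM in extra-embryonic ectoderm-like cells of MS-LS, OB-EB and EHF and 950, 884 and 1254 CPM in the other cells. Extra-embryonic ectoderm-like cells thus had the higher level in each library, by an amount that was smallest in EHF.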
